A study of Homo sapiens with 6 samples.

Results

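The genes described here are 10 immediate-early and related transcription factor genes, of 22984 genes with a sense-strand row in the data. They were chosen by name as the FOS family (FOS, FOSB, FOSL1, FOSL2), the JUN family (JUN, JUNB, JUND), EGR1, IER2 and IER3, and all 10 were present in every library. The measurement was Bru-seq, in which cells take up bromouridine for a short time and the labelled RNA is captured with an antibody and sequenced, so that reads report RNA made during the labelling and fall on introns as well as exons. The cells were HCT116, an established human colorectal carcinoma line, labelled for 0.5 h with no chase. A pair of cultures received 0.01% DMSO for 4 h, the vehicle control. Single cultures received GSTO1 siRNA at 10 nM for 24 h (siGSTO1), C1-27, a covalent inhibitor of the GSTO1 enzyme, at 1 μM for 4 h or for 24 h, and C1-14, described by the study as an inactive analogue, at 10 μM for 4 h. A DMSO culture of 24 h and a culture with a non-targeting siRNA were not analysed here, so for both 24 h treatments the effects of treatment and time cannot be told apart, nor can those of GSTO1 loss and of transfection.

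FOS and JUN proteins are leucine-zipper factors that pair with each other to form AP-1, which binds the TGANTCA element. JUN proteins can also pair among themselves, whereas FOS proteins need a JUN partner. EGR1 is a zinc-finger factor that binds GC-rich sites. Most of these genes are immediate-early genes, transcribed within minutes of a growth factor or stress signal through factors already present in the cell, among them SRF and its ternary complex partners, which are phosphorylated by ERK. FOSL1 is induced later and is kept on in many cell lines with an active RAS and ERK pathway.

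To show what the start regions of these genes hold, windows of 300 bases around each annotated transcript start were taken from RefSeq (GRCh38.p14), and 8 of the 10 genes had one; FOSL1 and IER3 did not. Each window was searched on both strands for TGANTCA (AP-1), TGACGTCA (CREB and ATF), GCGNGGGCG (EGR1) and the CArG box, the element bound by SRF. Printed below, 5′ to 3′ in the direction of the gene, are EGR1, the gene that rose; FOS, the gene of the 10 whose profile lay nearest to it; and JUND and FOSL2, the other 2 windows with a match. Capitals mark the matches.
EGR1 promoter, chr5:138465229-138465528, plus strand: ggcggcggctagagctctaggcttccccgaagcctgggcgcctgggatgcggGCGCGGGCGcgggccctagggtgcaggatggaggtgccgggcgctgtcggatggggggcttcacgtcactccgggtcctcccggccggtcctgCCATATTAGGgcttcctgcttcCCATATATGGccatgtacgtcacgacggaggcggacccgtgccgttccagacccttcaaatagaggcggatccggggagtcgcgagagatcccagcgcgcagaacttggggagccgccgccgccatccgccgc
FOS promoter, chr14:75278578-75278877, plus strand: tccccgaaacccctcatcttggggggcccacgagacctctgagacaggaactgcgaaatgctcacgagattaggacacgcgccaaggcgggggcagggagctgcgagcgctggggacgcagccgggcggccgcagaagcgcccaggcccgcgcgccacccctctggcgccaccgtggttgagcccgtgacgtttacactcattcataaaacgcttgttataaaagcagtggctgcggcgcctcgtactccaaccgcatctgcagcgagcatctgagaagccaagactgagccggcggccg
JUND promoter, chr19:18281573-18281872, minus strand: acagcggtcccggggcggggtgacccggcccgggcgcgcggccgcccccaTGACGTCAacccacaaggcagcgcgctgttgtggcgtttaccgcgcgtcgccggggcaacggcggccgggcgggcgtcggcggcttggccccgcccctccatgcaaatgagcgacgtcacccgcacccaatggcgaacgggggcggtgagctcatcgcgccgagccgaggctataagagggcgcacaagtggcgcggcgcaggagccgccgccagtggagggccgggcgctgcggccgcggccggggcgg
FOSL2 promoter, chr2:28392608-28392907, plus strand: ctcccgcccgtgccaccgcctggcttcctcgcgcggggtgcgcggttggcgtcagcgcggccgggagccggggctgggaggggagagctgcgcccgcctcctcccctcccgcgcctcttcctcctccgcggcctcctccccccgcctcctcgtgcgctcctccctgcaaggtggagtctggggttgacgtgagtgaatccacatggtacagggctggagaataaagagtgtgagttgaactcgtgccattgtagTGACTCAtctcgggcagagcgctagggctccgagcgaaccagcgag
With the start base counted as 0 and negative positions upstream, EGR1 had a pair of CArG boxes, at bases -105 to -96 and -83 to -74, and GCGNGGGCG at bases -198 to -190. JUND had TGACGTCA at bases -200 to -193, and FOSL2 had TGANTCA at bases 4 to 10. The FOS, FOSB, JUN, JUNB and IER2 windows held none of the 4 sequences, which says only that these letters are not in these windows. No match overlapped a match of another motif. Each motif was therefore found in 1 of 8 windows, beside 1.29% of 35116 RefSeq windows of the same length for the CArG box, 7.71% for TGANTCA, 1.85% for TGACGTCA and 9.43% for GCGNGGGCG.

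Sense-strand counts came to between 18112861 and 36841146 per library, and the smallest library was DMSO culture 1. The DMSO cultures were at least 1.4-fold apart at 19.1% of 7825 genes and, among the 10, at FOSB and JUN only. GSTO1 itself was at 3.51 and 3.72 RPKM in DMSO and 2.70 RPKM with siGSTO1, a ratio of 0.748 that did not pass the test (edgeR quasi-likelihood, adjusted p = 0.330). These reads report RNA made during the labelling and do not measure GSTO1 protein or RNA made earlier. They therefore cannot show how well the knockdown worked in this culture. The study reported knockdown of the protein in HCT116 cells at later times. Of the 7 markers of a colorectal epithelium, EPCAM lay between 2.91 and 3.89 RPKM and KRT8 between 3.90 and 10.5 RPKM, whereas VIL1 was at or near 0 in every library. The 7 summed to 27.3 and 17.6 RPKM in DMSO, 16.5 with C1-27 at 4 h, 32.8 with C1-14, 14.5 with C1-27 at 24 h and 18.8 with siGSTO1, and KRT8 alone was called, lower with C1-27 at 24 h (edgeR adjusted p = 0.0441), a call that DESeq2 did not make. The part of these markers in the results below was not tested. The 8 markers of fibroblasts, leukocytes and endothelium summed to between 0.699 and 1.08 RPKM per library, with CD3E at 0 throughout, COL1A2, DCN, PTPRC and CDH5 at or near 0, and none of the 3 that could be tested called. These 3 were detected, CD68 at 0.38 to 0.57 RPKM, PECAM1 at 0.17 to 0.37 and COL1A1 at 0.06 to 0.31.

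The levels are given as RPKM, in which the authors scaled reads for gene length and for library size, which allows genes of different length to be compared. In DMSO the order was FOSL1 at 7.37 ± 0.43 RPKM, EGR1 at 2.89 ± 0.366, IER2 at 2.31 ± 0.128 and JUND at 1.05 ± 0.0808 (mean ± SD, n = 2 cultures). There followed JUN at 0.720 ± 0.182, JUNB at 0.690 ± 0.0559, IER3 at 0.677 ± 0.108 and FOSL2 at 0.597 ± 0.078 RPKM, and then FOS at 0.362 ± 0.0123 and FOSB at 0.116 ± 0.0967 RPKM. Neighbours from JUN to FOSL2 overlapped between cultures and cannot be ordered, while every other neighbouring pair was apart in both cultures. FOSL1 stood at the 98.3rd percentile of genes by DMSO level, EGR1 at the 92.8th and FOSB at the 46.9th. None of the 10 overlapped another listed gene.

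**Figure D1:**
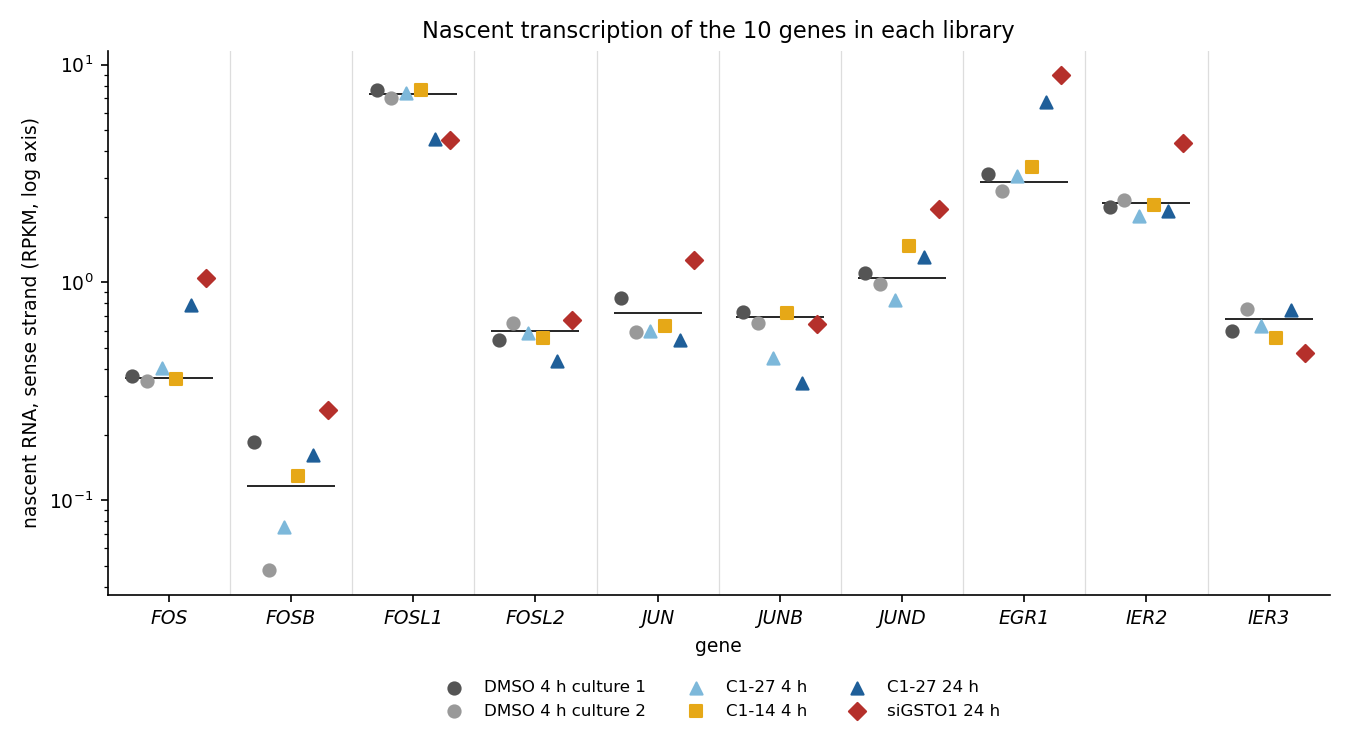
Nascent RNA on the sense strand of the 10 genes (RPKM, log axis) in each of 6 libraries, with 1 point per library and a line at the mean of the DMSO cultures. EGR1 and FOS are highest with siGSTO1 (8.92 and 1.05 RPKM) and next with C1-27 at 24 h (6.71 and 0.783 RPKM), and FOSL1 is lowest in these same libraries (4.53 and 4.56 RPKM).

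EGR1 rose after GSTO1 siRNA and was the only one of the 10 genes to pass the test in any comparison. It lies on chromosome 5 at 137801181 to 137805004 on the plus strand (hg19, as are all positions of genes given here). Its levels were 3.15 and 2.63 RPKM in DMSO, 3.07 with C1-27 at 4 h, 3.38 with C1-14, 6.71 with C1-27 at 24 h and 8.92 with siGSTO1. The 4 libraries of 4 h lay close together, and both 24 h libraries lay above all of them. The counts behind these levels were 282 and 411 in DMSO, 454, 448, 1180 and 896, in the same order. With siGSTO1 the level was 3.08 times the DMSO mean, 2.83 times culture 1 and 3.39 times culture 2, with a log2 change of 1.52 (SE 0.323) and an adjusted p of 0.000288 by edgeR's quasi-likelihood test with Benjamini-Hochberg adjustment over 14431 genes. DESeq2 gave an adjusted p of 0.00645, the highest over all settings run. With C1-27 at 24 h the level was 2.32 times the DMSO mean, and the log2 change of 1.16 (SE 0.324) did not pass the test (edgeR adjusted p = 0.0816; 0.0598 to 0.506 over the other settings). Because these are bulk libraries of single cultures, more cells transcribing a gene and more transcription per cell cannot be told apart, here or for any gene below.

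FOS, on chromosome 14 at 75745481 to 75748937 on the plus strand, encodes the founding partner of JUN in AP-1. Its levels were 0.371 and 0.354 RPKM in DMSO, 0.404 with C1-27 at 4 h, 0.359 with C1-14, 0.783 with C1-27 at 24 h and 1.05 with siGSTO1. As for EGR1, both 24 h libraries lay above all 4 h libraries, but the counts were small, with 30 and 49.9 in DMSO, 124.6 with C1-27 at 24 h and 95 with siGSTO1. The siGSTO1 level was 2.89 times the DMSO mean with an exact 95% interval of 2.13 to 3.96, and the C1-27 24 h level was 2.16 times it with an interval of 1.63 to 2.92. An interval beside a ratio to the DMSO mean pools the counts of both DMSO cultures, whereas the ratio weights the cultures equally. All intervals, here and below, come from the counts by the Clopper-Pearson method and cover counting error only, not the spread between cultures. In the test that uses that spread, the log2 changes of 1.41 (SE 0.555) and 1.06 (SE 0.551) did not pass, with edgeR adjusted p values of 0.150 and 1.00.

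FOSL1, on chromosome 11 at 65659692 to 65667997 on the minus strand, encodes FRA-1, an AP-1 subunit that lacks the strong activation domain of FOS. Its levels were 7.67 and 7.07 RPKM in DMSO, 7.44 with C1-27 at 4 h, 7.67 with C1-14, 4.56 with C1-27 at 24 h and 4.53 with siGSTO1. Both 24 h libraries lay below all 4 h libraries, on counts of 1744 and 988 against 1490 and 2394 in DMSO. The ratio to the DMSO mean was 0.615 with siGSTO1 and 0.619 with C1-27 at 24 h. The siGSTO1 log2 change of -0.81 (SE 0.265) lay at the threshold, with an edgeR adjusted p of 0.0504, and its adjusted p ran from 0.0371 to 0.145 over the other settings. It passed only in a robust fit that was added after the data had been seen. The C1-27 24 h log2 change of -0.74 (SE 0.262) did not pass (edgeR adjusted p = 0.487).

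FOSB and FOSL2 complete the FOS family. FOSB, on chromosome 19 at 45971253 to 45978437 on the plus strand, was too low to follow, at 0.184 and 0.0478 RPKM in DMSO, 0.0756 with C1-27 at 4 h, 0.128 with C1-14, 0.160 with C1-27 at 24 h and 0.260 with siGSTO1, on 14 to 53 counts. The DMSO cultures alone differed by a ratio of 0.259 at this gene (95% interval 0.127 to 0.501), so that the siGSTO1 level was 1.41 times culture 1 and 5.44 times culture 2. FOSL2, which encodes FRA-2 and lies on chromosome 2 at 28615779 to 28637516 on the plus strand, was at 0.542 and 0.652 RPKM in DMSO, 0.587 with C1-27 at 4 h, 0.555 with C1-14, 0.436 with C1-27 at 24 h and 0.675 with siGSTO1. Its lowest level was thus in the C1-27 24 h library, at 0.730 times the DMSO mean, which did not pass the test (edgeR adjusted p = 1.00).

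As a share of the summed RPKM of the FOS family, FOSL1 made up 87.5% and 87.0% in DMSO, 87.5% with C1-27 at 4 h and 88.0% with C1-14, but 76.8% with C1-27 at 24 h and 69.6% with siGSTO1. FOS made up 4.23% and 4.36% in DMSO, 4.75% with C1-27 at 4 h, 4.12% with C1-14, 13.2% with C1-27 at 24 h and 16.1% with siGSTO1. The family sum itself was 8.77 and 8.12 RPKM in DMSO, 8.503 with C1-27 at 4 h, 8.72 with C1-14, 5.94 with C1-27 at 24 h and 6.51 with siGSTO1, so the composition and the total both differed. With single libraries for each treatment these shares were not tested.

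**Figure D2:**
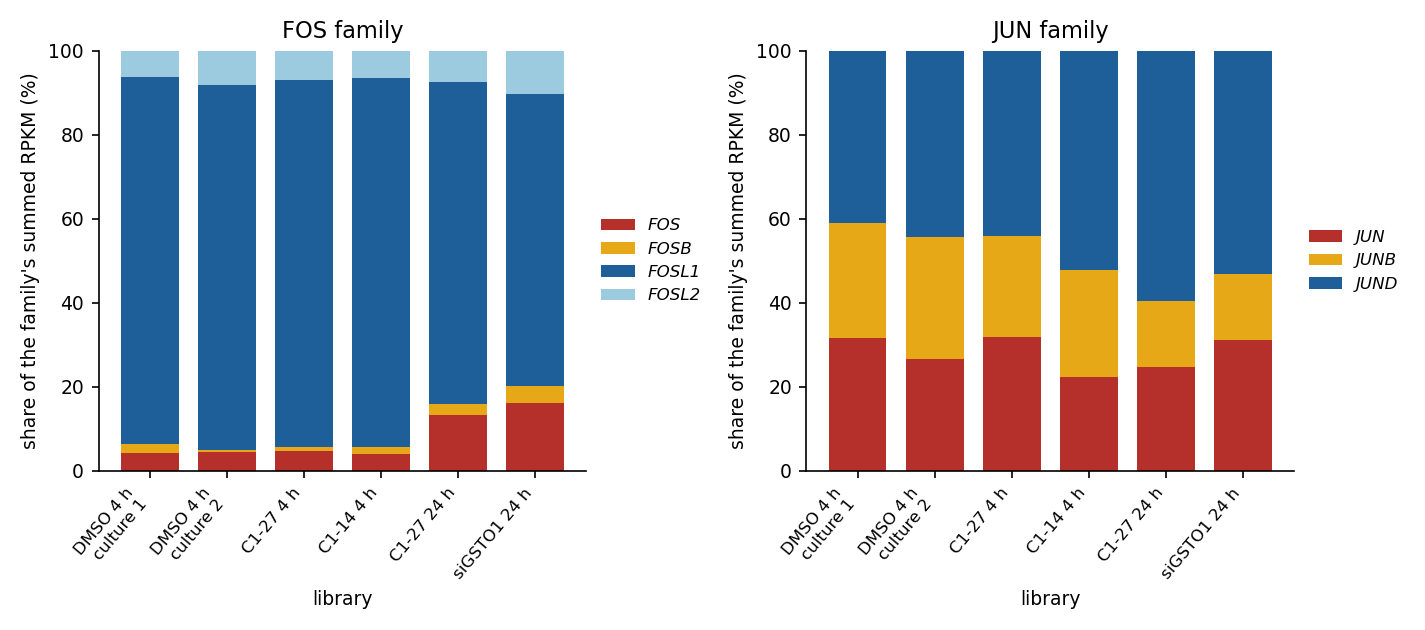
Share of each gene in the summed RPKM of its family (%, stacked bars that start at 0 and fill the axis) in each of 6 libraries, for the FOS family (left) and the JUN family (right). FOSL1 fills 87.0% to 88.0% of the FOS family bar in the 4 h libraries and 76.8% and 69.6% in the 24 h libraries.

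The JUN family genes differed in where they were highest. JUN, on chromosome 1 at 59246463 to 59249785 on the minus strand, was at 0.849 and 0.592 RPKM in DMSO, 0.597 with C1-27 at 4 h, 0.629 with C1-14, 0.543 with C1-27 at 24 h and 1.27 with siGSTO1. Only the siGSTO1 library lay above the DMSO cultures, at 1.77 times their mean (95% interval 1.44 to 2.40), and the log2 change of 0.72 (SE 0.527) did not pass the test (edgeR adjusted p = 0.600). JUND, the JUN gene that cells transcribe most steadily, is on chromosome 19 at 18390563 to 18392432 on the minus strand. It was at 1.10 and 0.988 RPKM in DMSO, 0.829 with C1-27 at 4 h, 1.48 with C1-14, 1.30 with C1-27 at 24 h and 2.17 with siGSTO1. The siGSTO1 level was again the highest, 2.08 times the DMSO mean, with a log2 change of 0.96 (SE 0.528) that did not pass (edgeR adjusted p = 0.410).

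JUNB, which can oppose JUN at AP-1 sites, is on chromosome 19 at 12902310 to 12904125 on the plus strand. It was at 0.730 and 0.651 RPKM in DMSO, 0.449 with C1-27 at 4 h, 0.721 with C1-14, 0.344 with C1-27 at 24 h and 0.645 with siGSTO1. Both C1-27 libraries lay below the DMSO cultures, at 0.651 and 0.498 times their mean, whereas the C1-14 and siGSTO1 libraries lay within or close to them. The counts were only 28.8 to 48.2, the counting interval for C1-27 at 4 h ran from 0.431 to 1.03 and that at 24 h from 0.322 to 0.793, and neither difference passed the test (edgeR adjusted p = 1.00 for both). JUND supplied 41.1% and 44.3% of the summed RPKM of the JUN family in DMSO, 44.2% with C1-27 at 4 h, 52.2% with C1-14, 59.5% with C1-27 at 24 h and 53.1% with siGSTO1. The C1-14 share was thus close to that with siGSTO1. JUNB supplied 27.2% and 29.2% in DMSO, 23.95% with C1-27 at 4 h, 25.5% with C1-14, 15.7% with C1-27 at 24 h and 15.8% with siGSTO1.

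IER2 and IER3 are short early response genes outside the AP-1 family. IER2, a nuclear protein gene on chromosome 19 at 13261282 to 13265718 on the plus strand, was at 2.22 and 2.40 RPKM in DMSO, 2.01 with C1-27 at 4 h, 2.26 with C1-14, 2.12 with C1-27 at 24 h and 4.35 with siGSTO1. The siGSTO1 library stood alone above the other 5, at 1.89 times the DMSO mean, and the log2 change of 0.80 (SE 0.370) did not pass (edgeR adjusted p = 0.269). IER3, a regulator of survival signalling on chromosome 6 at 30710976 to 30712327 on the minus strand, was at 0.601 and 0.754 RPKM in DMSO, 0.629 with C1-27 at 4 h, 0.554 with C1-14, 0.750 with C1-27 at 24 h and 0.473 with siGSTO1. Its counts ran from 16.8 to 46.7, and its lowest level, with siGSTO1, was 0.699 times the DMSO mean with an interval of 0.373 to 1.18 that includes no difference.

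To set these genes against the rest of the transcriptome, those with a mean of treated and control RPKM above 0.5 and a size above 300 bp were counted at 1.4-fold or more. With siGSTO1, 9 of the 10 passed this filter, all but FOSB. Of these, EGR1, FOS, JUND, IER2 and JUN were higher, 5 of 9, beside 10.5% of 8138 genes. IER3 and FOSL1 were lower, 2 of 9, beside 6.48% of genes. FOSL2 and JUNB, at 1.13 and 0.935 times the DMSO mean, were inside the threshold. FOS passed the filter only through the siGSTO1 library and IER3 only through DMSO, so that they had to differ, and such counts support nothing on their own, here or below. EGR1, JUND, IER2, JUN and FOSL1 were above 0.5 RPKM on both sides. By edgeR, EGR1 alone rose, 1 of 10, beside 3.00% of 14431 genes that rose, and no member fell, beside 1.16% that fell. An unadjusted p under 0.05 was reached by FOS, FOSL1, EGR1 and IER2 with edgeR and by FOSL1 and EGR1 with DESeq2.

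With C1-27 at 24 h, 9 genes passed the filter. EGR1 and FOS were 1.4-fold or more higher, 2 of 9, beside 3.23% of 7918 genes, and FOSL1 and JUNB were lower, 2 of 9, beside 3.49%. FOS passed the filter only through the C1-27 library, and JUNB and FOSL2 only through DMSO, which leaves EGR1 higher and FOSL1 lower among the genes above 0.5 RPKM on both sides. None was called by edgeR, beside 0.277% of genes called in either direction. FOSL1 and EGR1 reached an unadjusted p under 0.05 with both edgeR and DESeq2. This comparison and the siGSTO1 comparison use the same DMSO cultures.

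**Figure D3:**
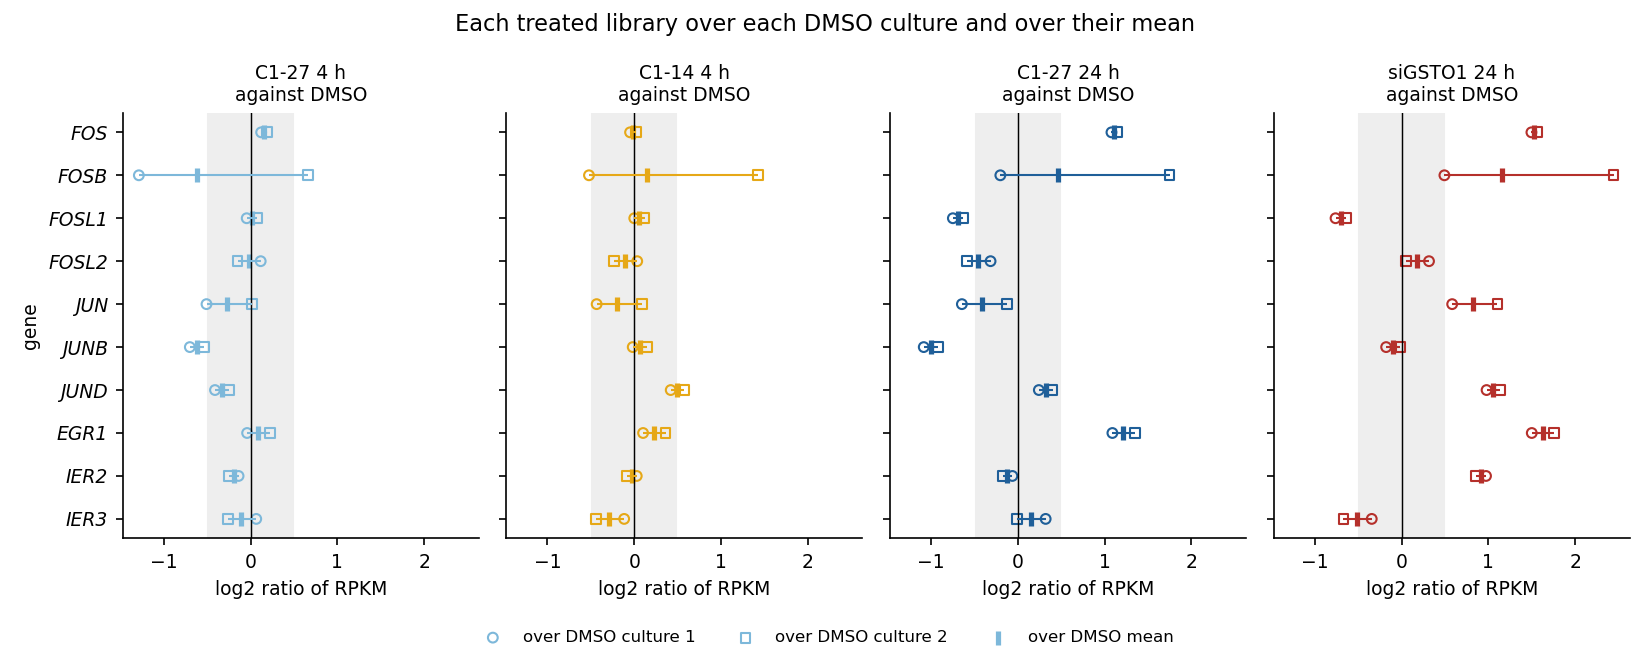
Log2 ratio of RPKM in each treated library over DMSO culture 1 (circles), DMSO culture 2 (squares) and the mean of both (bars), for the 10 genes in 4 comparisons, with a grey band for ratios within 1.4-fold. EGR1 and FOS lie right of the band over both cultures with C1-27 at 24 h and siGSTO1, FOSL1 lies left of it in these comparisons, and the circles and squares of FOSB lie far apart in all 4.

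At 4 h, 1 of the genes was past 1.4-fold in each compound library and none passed the test. With C1-27, 8 passed the filter (FOS and FOSB did not), none was 1.4-fold or more higher, beside 0.457% of 7667 genes, and JUNB, which passed only through DMSO, was lower, 1 of 8, beside 2.22%. With C1-14, again 8 passed, JUND was higher at 1.41 times the DMSO mean, 1 of 8, beside 3.71% of 7784 genes, and none was lower, beside 1.01%. JUND was 1.34 times DMSO culture 1 and 1.49 times culture 2, so this count rests on the choice of control. No member was called by edgeR in these comparisons, beside 0.0139% of genes called in either direction with C1-27 and 0.118% with C1-14, and no member had an unadjusted p under 0.05 with edgeR or DESeq2. C1-27 was given at 1 μM and C1-14 at 10 μM, and the levels are therefore set side by side without a comparison: EGR1 was at 3.07 and 3.38 RPKM, FOSL1 at 7.44 and 7.67, IER2 at 2.01 and 2.26, JUND at 0.829 and 1.48, and JUNB at 0.449 and 0.721.

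The libraries of C1-27 at 24 h and 4 h share the compound and dose, and their ratios use no DMSO culture, although the tests take their spread between cultures from DMSO alone. EGR1 was 2.19 times higher at 24 h (95% interval 1.96 to 2.44), FOS 1.94 times (1.403 to 2.73) and JUND 1.57 times (1.14 to 2.19), 3 of the 8 that passed the filter, beside 5.16% of 7784 genes. FOSL1 was at 0.614 times its 4 h level (0.577 to 0.653), 1 of 8, beside 1.61%. FOSL2 was at 0.742, IER3 at 1.19, JUN at 0.909 and IER2 at 1.05 times, all inside the threshold. FOS passed the filter only through the 24 h library and FOSL2 only through the 4 h library. None was called by edgeR, beside 0.104% of genes called in either direction, and the smallest adjusted p was 0.985, for EGR1. FOSL1 and EGR1 had an unadjusted p under 0.05 with edgeR and with DESeq2.

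The siGSTO1 and C1-27 libraries of 24 h share the time of treatment. EGR1 was 1.33 times higher with siGSTO1 (95% interval 1.22 to 1.45), FOS 1.34 times (1.01 to 1.75), and FOSL1 was at 0.992 times its C1-27 level (0.917 to 1.07). These 3 genes, which stood apart from DMSO in both libraries, were inside the 1.4-fold threshold here. JUN was 2.34 times higher with siGSTO1 (1.75 to 3.15), IER2 2.05 times (1.80 to 2.34), JUND 1.67 times (1.27 to 2.20) and FOSL2 1.55 times (1.35 to 1.78), 4 of the 8 that passed the filter, beside 8.72% of 8191 genes. IER3 was lower at 0.631 times (0.341 to 1.13), 1 of 8, beside 4.60%. FOSL2 passed the filter only through the siGSTO1 library and IER3 only through the C1-27 library, whereas JUN, IER2 and JUND were above 0.5 RPKM in both. No member passed the test of this difference by edgeR, beside 0.991% of genes called in either direction, and IER2 came nearest, with a log2 difference of 0.98 (SE 0.440), an adjusted p of 0.583 and the only unadjusted p under 0.05, with edgeR and with DESeq2.

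**Figure D4:**
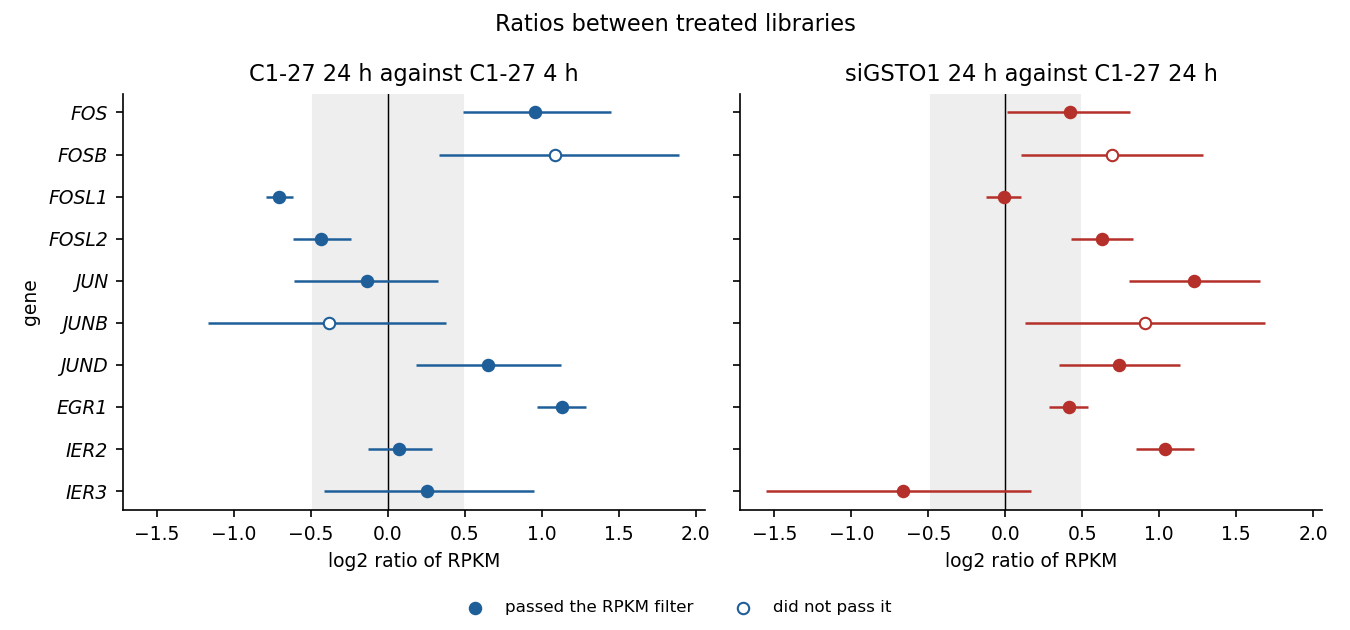
Log2 ratio of RPKM between single libraries for the 10 genes, C1-27 at 24 h over 4 h (left) and siGSTO1 over C1-27 at 24 h (right), with 95% counting intervals as lines, open points for genes below the RPKM filter and a grey band for ratios within 1.4-fold. EGR1 and FOS lie right of the band on the left and inside it on the right, and JUN and IER2 lie inside it on the left and right of it on the right.

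The likeness of the profiles over the 6 libraries was measured as the root mean square difference of log2(RPKM + 0.1), each centred on its own mean, against 7913 genes. FOS and EGR1 were the closest pair among the 9 members with a mean RPKM above 0.5, at 0.148, and 9 genes lay nearer to FOS than EGR1 did. FOS, at 0.354 to 0.404 RPKM in the 4 h libraries, reached that mean only through the 24 h libraries. JUN and IER2 came next at 0.182, and then JUND and IER2 at 0.235. The widest apart were FOSL1 and EGR1, at 0.961. The genes nearest to EGR1 were FADS1 at 0.112, IDH1 at 0.146 and FOS itself, and those nearest to FOS were DHCR7 at 0.0967, PHF21A at 0.0971 and RDH11 at 0.103. Nearest to FOSL1 were GAL at 0.0446, SCFD2 and EBNA1BP2, to IER2 GADD45A at 0.0922, GDAP1 and SLC38A2, to JUN KCTD13 at 0.0491, R3HDM4 and TCEAL4, and to JUND ELL3 at 0.0976, RHOC and TSPYL2. Nearest to JUNB were HOXB8 at 0.129, EIF5B and CDT1, to FOSL2 CAMK2D at 0.0415, GOLIM4 and CD55, and to IER3 QKI at 0.0626, BLID and CDKN2A. These distances describe 6 libraries, 4 of them taken at 4 h, and were not tested.

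Among other genes of the pathway, few passed the test. The counts with siGSTO1 stand beside 3.00% of all genes that rose and 1.16% that fell. In either direction, edgeR called 0.277% of genes with C1-27 at 24 h and 0.104% for C1-27 at 24 h over 4 h. For siGSTO1 over C1-27 at 24 h that share was 0.991%. Of 12 other AP-1 partners, 8 were tested with edgeR and 1 rose with siGSTO1, JDP2, whose protein pairs with JUN and represses AP-1 sites. JDP2 was at 0.179 and 0.168 RPKM in DMSO and 0.607 with siGSTO1, 3.49 times the DMSO mean, with a log2 change of 1.69 (SE 0.359) and an edgeR adjusted p of 0.000268. JDP2 was called by DESeq2 too, but did not pass the RPKM filter used for the 1.4-fold counts. No partner was called in the other comparisons, where at most 2 had an unadjusted p under 0.05 with edgeR or with DESeq2. Of 5 other EGR and NAB genes, only 2 had enough counts to test, and neither was called or had an unadjusted p under 0.05 in any comparison with edgeR or DESeq2. Of 25 upstream factors and kinases, among them SRF, CREB1 and MAP kinases, 24 were tested and none was called in any comparison by edgeR or DESeq2, with at most 2 at an unadjusted p under 0.05. Their median edgeR log2 change with siGSTO1 was -0.123, beside 0.015 for all genes.

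Of 39 other immediate-early genes, 38 were tested, and with siGSTO1 1 rose and 4 fell. BTG2, an antiproliferative early gene, rose from 0.989 and 1.13 RPKM in DMSO to 3.46 (log2 change 1.59, SE 0.422, edgeR adjusted p = 0.00784). CYR61 and CTGF, which encode secreted matrix proteins, fell to 0.176 and 0.113 times the DMSO mean (edgeR adjusted p = 1.03e-08 and 0.00198), and the kinase gene PLK2 and the growth regulator MYC fell to 0.468 and 0.510 times (edgeR adjusted p = 0.000917 and 0.00133). The DMSO cultures were far apart at CYR61, with 4.62 and 8.33 RPKM, at CTGF, with 0.441 and 0.821, and at PLK2, with 5.27 and 10.8, and the siGSTO1 levels of 1.14, 0.0714 and 3.75 RPKM lay below both. CTGF rested on 33 and 107 counts in DMSO and 6 with siGSTO1, and did not pass the RPKM filter. Of these 5 genes, DESeq2 called CYR61 and MYC. The median edgeR log2 change of the 38 was -0.161, and that of the 10 genes was 0.761, beside 0.015 for all genes. All lists were chosen with earlier results of these data known, and the difference between these medians was not tested. With C1-27 at 24 h none of the 38 rose and 2 fell, CYR61 to 0.409 and MYC to 0.471 times the DMSO mean (edgeR adjusted p = 0.0441 and 0.00453), of which DESeq2 called MYC. CYR61 was also lower at 24 h than at 4 h of C1-27, at 0.344 times (edgeR adjusted p = 0.0386), a call that DESeq2 did not make. None of the 38 was called by edgeR or DESeq2 with C1-27 or C1-14 at 4 h or between siGSTO1 and C1-27 at 24 h, where 3, 0 and 8 had an unadjusted p under 0.05 with edgeR and 0, 0 and 3 with DESeq2.

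Among genes with textbook sites for these factors, AP-1 targets were called in both directions and EGR1 targets only lower. Of 19 AP-1 target genes, 11 were tested, and with siGSTO1 1 rose and 2 fell. IL8, a chemokine, rose from 0.0799 and 0.107 RPKM to 0.558, on 6 and 14 counts in DMSO and 47 with siGSTO1 (edgeR adjusted p = 0.0326). CCND1, which encodes cyclin D1, fell from 6.55 and 4.62 RPKM to 2.59, and EZR, a membrane and actin linker, fell from 27.5 and 35.9 RPKM to 14.98 (edgeR adjusted p = 0.000376 and 0.0378). DESeq2 called CCND1 and EZR, and IL8 did not pass the RPKM filter. No AP-1 target was called in the other comparisons by either tool, with at most 3 at an unadjusted p under 0.05. Of 10 EGR1 target genes, 9 were tested, and with siGSTO1, the library with the highest EGR1, none rose and 2 fell. These were F3, tissue factor, from 13.4 and 19.6 RPKM to 1.74, and THBS1, a matrix protein, from 0.694 and 2.13 RPKM to 0.121 (edgeR adjusted p = 8.52e-25 and 1.36e-16). F3 also fell with C1-27 at 24 h, to 4.74 RPKM (edgeR adjusted p = 3.33e-08), and was lower there than at 4 h of C1-27, as was THBS1, at 0.262 and 0.333 times (edgeR adjusted p = 1.19e-07 and 0.0104). Both were lower with siGSTO1 than with C1-27 at 24 h, F3 at 0.368 and THBS1 at 0.178 times (edgeR adjusted p = 0.000296 and 8.98e-07). DESeq2 called F3 in each of these comparisons and THBS1 in none. THBS1 was at 0.679 RPKM with C1-27 at 24 h, beside 0.694 and 2.13 in DMSO, 2.04 with C1-27 at 4 h and 2.42 with C1-14. Between siGSTO1 and C1-27 at 24 h THBS1 did not pass the RPKM filter. The DMSO cultures differed at THBS1 and at F3, and the part of this difference in the contrast of these 24 h libraries was not tested. The median edgeR log2 change of the 9 EGR1 targets with siGSTO1 was -0.152, beside 0.015 for all genes. Whether the level of any target depends on EGR1 was not tested.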

How the data were processed

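Per the labels, each of 6 cultures gave 1 Bru-seq library. Per the submitters' processing notes, the tools were CASAVA 1.8.2, Bowtie 0.12.8, TopHat 1.4.1 and bedtools 2.16.2 and the build was hg19. The counter and annotation were not given in the sources used here. The authors deposited estimated counts for each gene on each strand, exons and introns together, many of them not whole, a signal column, which is that count per base and was not used in any test, and RPKM, which they scaled by 23388425 to 46017051 reads per library. The siRNA time was taken from the labels, since the study's methods can also be read as 4 h. Rows of ambiguous strand (1.84% to 2.00% of counts) were left out.

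Ratios were taken as the treated RPKM over the mean DMSO RPKM with no pseudocount added, and were counted at 1.4-fold where the gene exceeded 300 bp and the mean RPKM 0.5. For tests, deposited counts were rounded and fitted in 5 groups with edgeR 4.0.16 in R 4.3.3 (TMM normalization, quasi-likelihood test, Benjamini-Hochberg adjustment, 14431 genes over 300 bp that reached 10 counts in 2 or more libraries). Only 1 residual degree of freedom remains, from the 2 DMSO cultures, so each lone library is assumed to vary like them, and nothing in the labels says whether that spread is biological or technical. A call is an adjusted p under 0.05. A standard error is the log2 change over the square root of F. DESeq2 1.42.0 was the alternative. The edgeR fit alone was also run on simulated counts in which every library varied alike. That run cannot show whether a lone library varies like the DMSO cultures. Other work used Python 3.11.15 with pandas 2.3.3, numpy 2.4.6, scipy 1.17.1 and matplotlib 3.10.9.

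The 10 genes and all lists were chosen with earlier results of these data known. Named beside them are, per list, comparison and direction, up to 5 called genes with the largest ratio that were past 1.4-fold against each DMSO culture alone, the 3 genes with the nearest profile to each member, GSTO1 and the markers. Alternatives changed the control culture, pseudocount, filters, scaling and test settings, and 5 of them were added once the data were known.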

Additional observations from a re-analysis of the deposited data

Results flagged for a closer look

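Antisense reads lie outside the comparisons above and were looked at in 40 pairs of gene and treated library. In 1 pair the level was above both DMSO cultures and the counting interval against the pooled DMSO counts lay above a ratio of 1. Antisense RNA across FOSL1 was at 0.0734 RPKM with siGSTO1, on 16 counts, and at 0.0309 and 0.0148 RPKM in DMSO, on 6 and 5 counts. The ratio to the DMSO mean was 3.22, and the exact 95% interval from the pooled counts was 1.55 to 8.47, for counting error only and with no correction over the 40 pairs. Against culture 1 alone the interval ran from 0.883 to 7.41, which includes no difference, and against culture 2 alone from 1.74 to 17.35. In the other libraries it was on 5 counts with C1-27 at 4 h and 6 counts each with C1-27 at 24 h and C1-14, and at 24 h of C1-27, where the sense strand of FOSL1 was at 4.56 RPKM beside 4.53 with siGSTO1, the antisense strand was at 0.0157 RPKM. The difference between these 24 h libraries was not tested.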

How the results depend on the processing

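EGR1 was called with siGSTO1 under every setting of the test that was run, and no direction of a called value changed. FOSL1 with siGSTO1 was called only by a robust fit, which raised the genes called lower from 0 to 1 (adjusted p = 0.0371). The other 4 settings added after the data had been seen gave FOSL1 an adjusted p of 0.0504 (size filter on the listed length), 0.0539 (common dispersion), 0.0504 (tagwise dispersion) and 0.1004 (no abundance trend). With 1 DMSO culture left out, some changes that were not called turned their sign, and not only near 0. FOSB was at 0.4096 times culture 1 and 1.582 times culture 2 with C1-27 at 4 h. At 24 h of C1-27 it was at 0.869 and 3.356 times. JUN and IER3 with C1-27 at 4 h also lay below 1 culture and above the other. With both DMSO cultures kept, sign changes occurred only in values near 0. FOSL2 with C1-27 at 4 h (log2 change -0.0029) was at 0.0123 with DESeq2 size factors in edgeR, 0.0043 with no count filter, 0.0111 with the compared libraries alone and 0.013 with DESeq2, and FOS with C1-14 (0.0041) was at -0.0073 with those size factors, -0.0047 with no count filter and -0.0062 with DESeq2.

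Counts past 1.4-fold rested on small numbers. A pseudocount of 1 RPKM took them to 4 higher and 1 lower with siGSTO1, 0 lower with C1-27 at 4 h, 1 higher and 1 lower with C1-27 at 24 h, 0 higher with C1-14, 1 higher for C1-27 at 24 h over 4 h, and 2 higher and 0 lower for siGSTO1 over C1-27 at 24 h. A pseudocount of 0.1 RPKM gave 1 lower with siGSTO1 and 0 higher with C1-14, and without the RPKM filter 6 were higher with siGSTO1, 2 lower with C1-27 at 4 h, 4 higher for C1-27 at 24 h over 4 h and 6 higher for siGSTO1 over C1-27 at 24 h. With 1 DMSO culture left out, the lower genes numbered 1 to 2 with siGSTO1, 1 to 2 with C1-27 at 4 h and 2 to 3 with C1-27 at 24 h, and the higher genes 0 to 1 with C1-14: without DMSO culture 2, IER3 was no longer lower with siGSTO1 (0.788 times), JUN was also lower with C1-27 at 4 h (0.703 times) and at 24 h (0.639 times), and JUND was no longer higher with C1-14 (1.34 times). Rescaling RPKM with TMM or DESeq2 factors gave 2 lower for C1-27 at 24 h over 4 h and 3 lower with C1-27 at 24 h, where FOSL2 was at 0.702 and 0.692 times the DMSO mean. Without DMSO culture 1, FOSL2 was lower there (0.668 times) and JUNB was below the RPKM filter. Rescaling moved the median log2 ratio of all genes with siGSTO1 to -0.116 and -0.153, against which EGR1 was still 2.85 and 2.79 times the DMSO mean and FOSL1 0.569 and 0.555 times. No paired test was possible because only DMSO had more than 1 culture, and the labels pair no DMSO culture with a treatment. The study's siGSTO1 ratios for CYR61 and F3 lay nearer those over culture 1 (0.247 and 0.130) than the mean (0.176 and 0.106). Its C1-27 24 h ratios lay nearer those over culture 2 (0.318 and 0.242) than the mean (0.409 and 0.288). Over these cultures, EGR1 was at 2.83 times with siGSTO1 and 2.55 times with C1-27 at 24 h, and FOSL1 at 0.590 and 0.646 times. Depth limited FOSB, JUNB and IER3, with at most 53 counts per library.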
